A study of Bos taurus with 48 samples.

Results

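Caruncular and intercaruncular endometrium were compared within the same cow in 12 pregnant cows on day 17 of pregnancy. The members were the 24 samples labelled pregnant (of 44 samples in all), paired by the cow number in their titles, and the 2 arrays of the sample hybridised again were averaged, so that 25 of 48 arrays entered. All cows were lactating Holstein-Friesian dairy cows of mixed ancestry with synchronised cycles. Each pregnant cow had received a grade 1 blastocyst on day 7 and was slaughtered on day 17. The labels divided these cows by embryo size (7 large, 5 small) and by a fertility class that they do not define (6 fertile, 6 sub-fertile). The 10 cyclic cows, which were synchronised and sampled on the same day without an embryo, served for 1 further comparison. RNA of whole tissue pieces was labelled with Cy5 and hybridised to 2-colour Agilent oligonucleotide arrays. The other channel, Cy3, held a pool made from all 44 samples, and no dyes were swapped.

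Ruminant endometrium has raised, gland-free areas, the caruncles, where the placenta later attaches and exchange takes place. The tissue between them is rich in glands, whose secretions nourish the embryo before attachment. In this period the elongating embryo secretes interferon tau, which signals pregnancy and induces interferon-stimulated genes in the endometrium.

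Tissue lay with slide and scan in these arrays. In 11 of the 12 cows the intercaruncular samples lay on slides of the first scan and the caruncular samples on slides of the second, so for these cows tissue and scan cannot be told apart. The exception is cow Pregnant_9790 (large embryo, sub-fertile), here called the single-slide cow, with both tissues on 1 slide of the third scan, and its values are given beside many of the means. The cyclic cow Non-Pregnant_9786 was laid out in the same way and is called the single-slide cyclic cow. The share of spots well above background was 69.8 to 79.9% in the intercaruncular arrays of the first scan, 70.3 to 72.9% in the caruncular arrays of the second and 75.8 to 84.0% in the 3 arrays of the third. The median signal over background was 8.96 to 18.4, 17.2 to 25.8 and 28.7 to 29.7 in the same order.

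Of 14689 probes tested, 1383 (9.42%) were at least 1.5-fold higher in caruncular and 1214 (8.26%) at least 1.5-fold higher in intercaruncular tissue, at an adjusted p under 0.05 by limma with the cow as a block. Together these 2597 probes were 17.7% of those tested, and they are the probes referred to as called. Of these, 575 and 825 differed in their direction in all 12 cows. Over all probes tested the median difference, caruncular minus intercaruncular, was -0.02 on the log2 scale. The 12 caruncular values lay entirely above or entirely below the 12 intercaruncular values for 183 probes, 1.25% of those tested. The tested probes with a symbol stood for 11378 genes. Of these, 851 had several probes, and of the 336 genes of this kind with a called probe, every probe was called in 1 direction in 53 and probes were called in both directions in 3.

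The cow with both tissues on 1 slide shared the direction of the intercaruncular calls far more often than that of the caruncular calls. When the other 11 cows were fitted alone, 1523 probes were called higher in caruncular tissue, and 54.8% of them were also higher in caruncular tissue in the single-slide cow, at a median log2 difference of 0.062 against 0.85 in the 11 cows. The 1307 probes called higher in intercaruncular tissue had the same direction in the single-slide cow for 81.7%, at a median of 0.44 in that direction against 0.83. Over all probes tested 59.2% had the same direction. In the single-slide cyclic cow the shares were 48.2% and 80.9%, against 56.2% over all probes tested. Of the 1383 caruncular calls, 237 (17.1%) were past 1.5-fold in their direction in both of these cows and 973 (70.4%) in neither, and of 1202 intercaruncular calls measured in both, 379 (31.5%) and 494 (41.1%). Over all probes tested the shares were 6.43% and 84.3%, and the calls come from the fit that holds 1 of these cows. Of the 44 samples 4 caruncular ones, 1 pregnant and 3 cyclic, were hybridised again in the third scan, and the probes called in the 11 cows read a median of 0.0015 (caruncular calls) and 0.036 (intercaruncular calls) more in the direction of the call on the repeat than on the first array. These repeats set the third scan against the second. No array of the first scan is among them, so they do not measure the scan contrast that lies with tissue. With the scan as a fixed block, a fit in which the single-slide cow alone separates tissue from scan, limma called 0 of 14683 probes (895 at an unadjusted p under 0.05), and the median SE of a difference was 0.26 against 0.077.

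**Figure D1:**
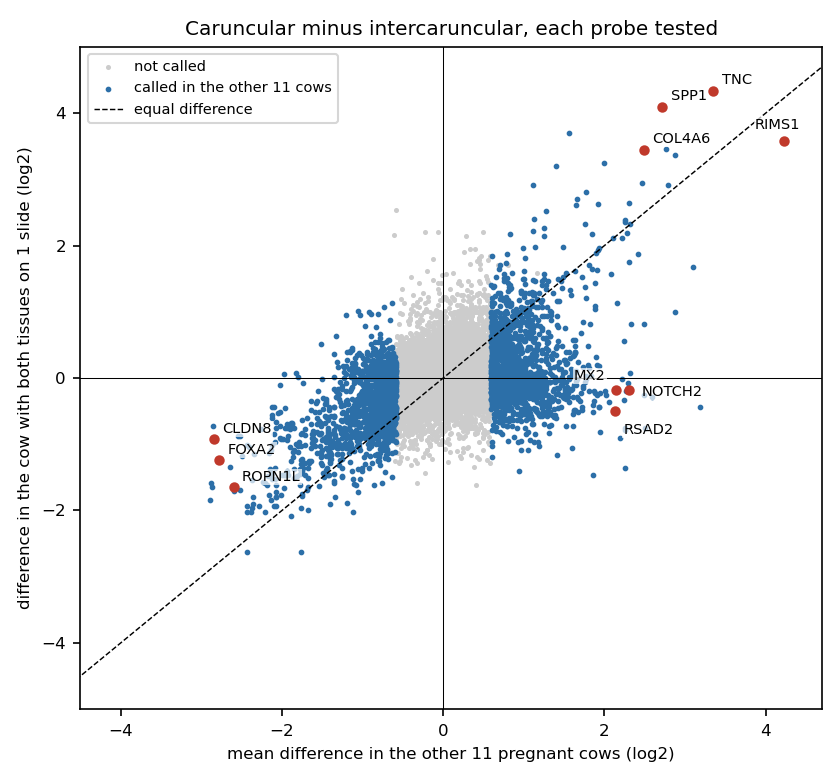
Each point is a probe, with the mean log2 difference, caruncular minus intercaruncular, of the 11 pregnant cows whose tissues lay in different scans on the x axis and the difference in the single-slide cow on the y axis; probes called in the 11 cows are blue and the dashed line marks equal differences. TNC, SPP1, COL4A6 and RIMS1 lie near or above the line, FOXA2, ROPN1L and CLDN8 lie below 0 on both axes, and MX2, RSAD2 and NOTCH2 lie above 2 on the x axis and just under 0 on the y axis.

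The largest differences toward caruncular tissue, taken among called probes with 1 direction in all 12 cows, were those of RIMS1, TNC, FAM13B, SPP1, MYOT, CCDC73, COL4A6, GRIA4, PLPPR1 and VAV3, with fold differences from 18.1 (RIMS1) to 5.09 (VAV3). TNC encodes tenascin C, an extracellular matrix glycoprotein of remodelling tissue. Its log2 ratio to the pool ran from 0.01 to 1.60 (median 0.98) in caruncular and from -3.87 to -0.83 (median -2.74) in intercaruncular tissue. The ranges did not overlap, every cow was higher in caruncular tissue, and the difference was 3.43 ± 0.28 (SE, n = 12, as for all values after ±; adjusted p = 2.92e-06) and 4.34 in the single-slide cow. SPP1, osteopontin, is a secreted integrin ligand and an adhesion molecule between uterus and conceptus. Its level ran from -3.11 to 3.17 (median 1.48) in caruncular and from -4.09 to -0.16 (median -1.75) in intercaruncular tissue. These ranges overlapped widely, and the cow with the lowest level in one tissue also had the lowest in the other, but each of the 12 cows was higher in caruncular tissue, by 2.84 ± 0.35 (adjusted p = 1.49e-05) and by 4.10 in the single-slide cow.

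COL4A6, a basement membrane collagen chain, ran from -0.65 to 1.97 (median 1.18) in caruncular and from -2.46 to -0.56 (median -1.60) in intercaruncular tissue. Only the ends of the ranges met, and the difference was 2.57 ± 0.25 (adjusted p = 4.03e-06), with 3.45 in the single-slide cow. RIMS1, known as a scaffold of the presynaptic active zone, ran from -1.66 to 2.45 in caruncular and from -4.42 to -1.31 in intercaruncular tissue, where 11 of 12 samples were well above background. Its difference was 4.17 ± 0.36 (adjusted p = 2.98e-06). The glutamate receptor subunit GRIA4 differed by 2.51 ± 0.23 and the sarcomeric protein gene MYOT by 2.82 ± 0.26. In the single-slide cow RIMS1 differed by 3.58, GRIA4 by 2.94, MYOT by 3.46 and CCDC73 by 2.91. PLPPR1, which the array describes as PRG-3, reached 2.38 ± 0.23 and 1.88. Smaller values than the mean stood in the single-slide cow for FAM13B (1.67 against 2.98) and VAV3 (0.81 against 2.35). A second probe for VAV3, a guanine nucleotide exchange factor, differed by -0.20 ± 0.09 (adjusted p = 0.0609) and was not called.

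The largest differences toward intercaruncular tissue were those of DSCAML1, TTLL9, MGAT4C, CLDN8, FAM55A, FOXA2, PRSS16, CFAP77, ROPN1L and CFAP251, chosen in the same way. Among the 5 of them well above background in every sample the folds ran from 6.42 (CLDN8) to 5.74 (ROPN1L). FOXA2 is the transcription factor required for uterine glands. It ran from -0.28 to 1.24 (median 0.02) in intercaruncular and from -4.58 to -0.53 (median -2.63) in caruncular tissue. The ranges did not overlap, and the difference was -2.65 ± 0.32 (adjusted p = 1.16e-05), with -1.24 in the single-slide cow. ROPN1L, a protein of the axoneme's radial spokes, ran from -1.36 to 0.66 (median -0.09) in intercaruncular and from -4.83 to -0.54 (median -2.56) in caruncular tissue. Its ranges overlapped, while each cow was lower in caruncular tissue, by -2.52 ± 0.31 (adjusted p = 1.42e-05) and by -1.65 in the single-slide cow. CLDN8, a tight junction claudin, ran from -1.43 to 1.29 in intercaruncular and from -5.05 to -0.47 in caruncular tissue and differed by -2.68 ± 0.38 (adjusted p = 3.89e-05), with -0.92 in the single-slide cow.

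The other 5 genes were close to the detection limit in caruncular tissue, which leaves their folds and rank uncertain. There DSCAML1 was well above background in 3 of 12 samples, TTLL9 and CFAP251 in 4 and MGAT4C and CFAP77 in 8, against 12 of 12 intercaruncular samples each. TTLL9, CFAP77 and CFAP251 belong, with ROPN1L, to the proteins of motile cilia. The choice of the 10 genes fixed their direction in the single-slide cow, where they ran from -0.73 (FAM55A) to -1.84 (DSCAML1). In the single-slide cyclic cow, which the choice did not use, they ran from -2.65 (CFAP77) to -4.45 (MGAT4C).

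**Figure D2:**
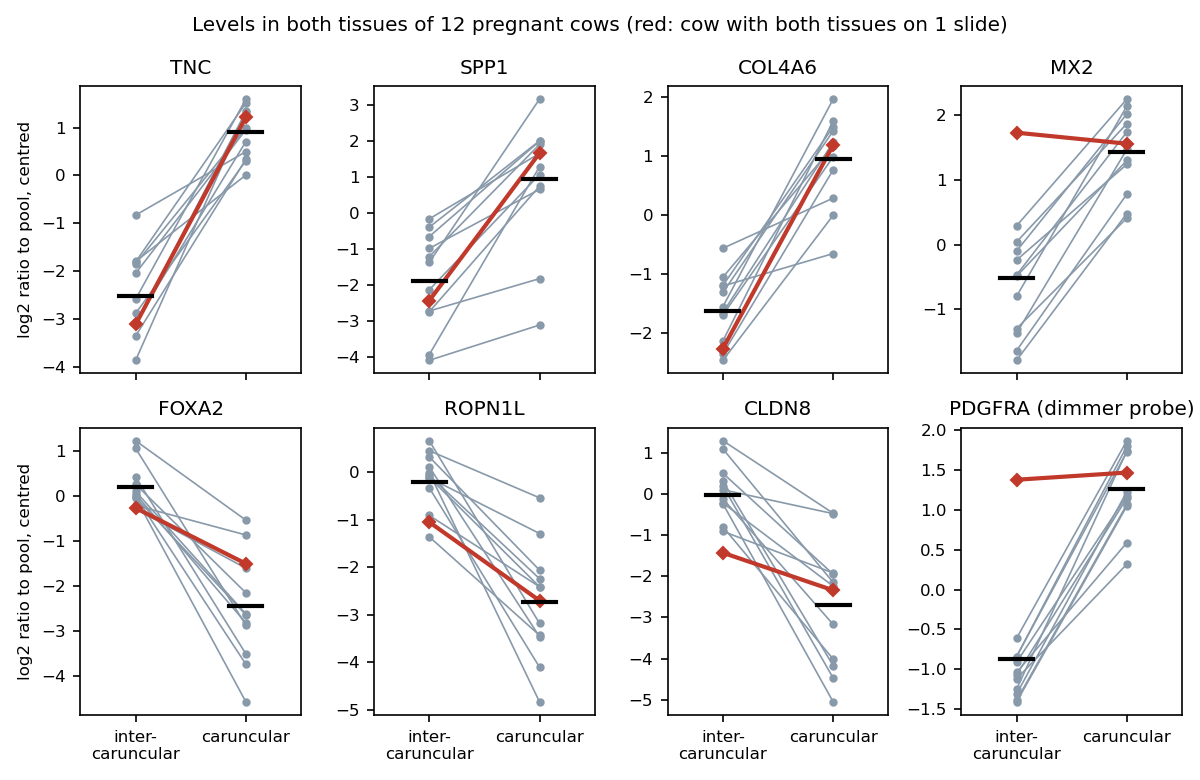
Log2 ratio to the pool, centred on the array median, in the intercaruncular and caruncular tissue of each of the 12 pregnant cows (grey points joined by lines; red, the single-slide cow; black bars, means of the groups). TNC, SPP1 and COL4A6 rise and FOXA2, ROPN1L and CLDN8 fall toward caruncular tissue in all 12 cows, while the red line of MX2 and of the PDGFRA probe with the lower signal is flat, at an intercaruncular level of 1.73 and 1.38 that no other cow reaches.

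Markers of cell types were counted next, each list with 1 probe a gene, the one with the highest mean signal. The counts of this and all later lists are to be read against all probes tested. Of those, 9.42% were called higher in caruncular and 8.26% in intercaruncular tissue. In whole tissue, fewer cells of a type and less RNA per cell cannot be told apart. The ciliated epithelium list differed most. Of 13 genes tested, 12 were called higher in intercaruncular and none in caruncular tissue, at a median difference of -1.78. The axonemal dynein genes DNAI1 (-2.06 ± 0.19), DNAH9 (-2.25 ± 0.23) and DNAH5 (-1.91 ± 0.30), the tektin TEKT1 (-2.05 ± 0.27) and the central pair protein SPAG6 (-2.34 ± 0.29) were among them, and the centrin CETN2, which also serves centrioles, was not (0.05 ± 0.04). DNAI1 was well above background in only 5 of 12 caruncular samples. The median of the list was below 0 in all 12 cows, from -3.26 in cow Pregnant_3805 to -0.67 in cow Pregnant_3803, and it was -1.47 in the single-slide cow.

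General epithelial markers followed in the same direction, with 12 of 22 called higher in intercaruncular tissue and 1 in caruncular tissue (median -0.62, and -0.81 in the single-slide cow). The keratins KRT7 (-1.57 ± 0.18) and KRT18 (-1.38 ± 0.16) differed more than KRT8 (-0.66 ± 0.15) and the adhesion molecule EPCAM (-0.83 ± 0.15), and in the single-slide cow these 4 stood at -0.98, -0.81, -0.84 and -1.17. The membrane protease ST14 did not overlap between the tissues, at -0.98 to -0.03 in caruncular and -0.01 to 0.53 in intercaruncular samples. CDH1, E-cadherin, was the marker called toward caruncular tissue (0.83 ± 0.20, adjusted p = 0.00215), and it differed by -0.65 in the single-slide cow. Of 12 gland genes tested, 6 were called higher in intercaruncular tissue and 1 in caruncular tissue, at a median of -0.60 that was above 0 in 2 of the 12 cows and -0.53 in the single-slide cow. Called toward intercaruncular tissue were, among others, FOXA2, the trefoil peptide TFF3 (-2.41 ± 0.29, well above background in 5 of 12 caruncular samples), the immunoglobulin receptor PIGR (-1.60 ± 0.18) and gastrin-releasing peptide GRP (-1.23 ± 0.19). In the single-slide cow TFF3 differed by -0.87, PIGR by -1.26 and GRP by -0.19, and in the single-slide cyclic cow GRP differed by 0.38. The chemokine CXCL14 on the same list was called the other way (2.26 ± 0.22, and 1.76 in the single-slide cow). SERPINA14, the uterine milk protein, was at 0.29 ± 0.23 (adjusted p = 0.287), with 6 cows in each direction.

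Stromal markers were higher in caruncular tissue for 16 of 24 genes, with 1, the matrix Gla protein MGP (-0.65), called toward intercaruncular tissue. The list's median was 0.73 over the 12 cows and 0.77 in the single-slide cow, and above 0 in every cow (lowest 0.05 in cow Pregnant_3807, highest 1.34 in cow Pregnant_3805). POSTN (1.09 ± 0.09), LUM (1.26 ± 0.13), SPARC (1.04 ± 0.11) and COL1A1 (1.07 ± 0.12), all secreted matrix proteins of fibroblasts, were higher in caruncular tissue in 12 of 12 cows, with 0.75, 0.64, 1.5 and 1.96 in the single-slide cow. On the repeat arrays of the 4 samples hybridised again COL1A1 read 0.49 to 1.46 and SPARC 0.14 to 1.10 higher than on the first arrays, which reaches the size of their tissue differences, while POSTN (-0.02 to 0.07) and LUM (-0.22 to 0.01) moved less. Vimentin was below the fold required (0.43 ± 0.09). Of 15 smooth muscle genes, 6 were called higher in caruncular tissue (median 0.33, and 0.72 in the single-slide cow). Desmin (DES, 0.74 ± 0.12), MYLK (0.76 ± 0.10) and TAGLN (0.78 ± 0.09) were called, with 1.19, 1.22 and 0.84 in the single-slide cow. A second MYLK probe was at 0.30 ± 0.10 and was not called. SYNPO2 (1.10 ± 0.13) and PLN (0.70 ± 0.09) were called but differed by 0.04 and 0.28 in the single-slide cow. The smooth muscle actin and myosin genes ACTA2 (0.33 ± 0.13) and MYH11 (0.10 ± 0.14) were not called, but differed by 1.25 and 1.23 in that cow.

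Vascular and immune markers came next, to be read against the 17.7% of all probes that were called in either direction. The caruncle is known for its dense vessels later in pregnancy, but none of 18 endothelial genes was called higher in caruncular tissue, and ROBO4 was called higher in intercaruncular tissue (-0.60 ± 0.09) but differed by 0.15 in the single-slide cow. The list's median was -0.24, below 0 in the 11 cows measured across scans (-0.53 to -0.01) and 0.30 in the single-slide cow. For example, VWF differed by -0.35 ± 0.11 in the fit and by 0.30 in the single-slide cow, and PECAM1 by 0.35 ± 0.10 and 0.96. In the single-slide cyclic cow the list's median was -0.30, with ROBO4 at -0.54, VWF at -0.47 and PECAM1 at -0.17. Of 19 lymphocyte and NK cell genes none was called by limma (median -0.02), among them the T cell receptor chain CD3E (-0.44 ± 0.12, adjusted p = 0.00459) and perforin, PRF1 (-0.08 ± 0.12).

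Macrophage genes had 1 call in each direction of 15, VSIG4 (0.59 ± 0.21, adjusted p = 0.0236) toward caruncular and the scavenger receptor CD163 (-0.70 ± 0.14, adjusted p = 0.00051, and -0.42 in the single-slide cow) toward intercaruncular tissue, a share near that of all probes. In the single-slide cow the median of that list was 0.97 against 0.24 in the fit, within the -0.26 to 1 of the other 11 cows. VSIG4 was at 1.84 in the single-slide cow. CD68 was at 1.78 there and at 0.56 ± 0.25 in the fit (adjusted p = 0.0613, not called), and CD14 at -0.22 in both. Of 2 red cell genes tested AHSP was called (-0.64 ± 0.08, and -0.19 in the single-slide cow) and the globin gene HBA was not (-0.17 ± 0.06). The 3 trophoblast genes tested, PAG1, GATA3 and TFAP2C, were not called, at differences of 0.29 ± 0.18, -0.49 ± 0.11 and 0.44 ± 0.15.

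**Figure D3:**
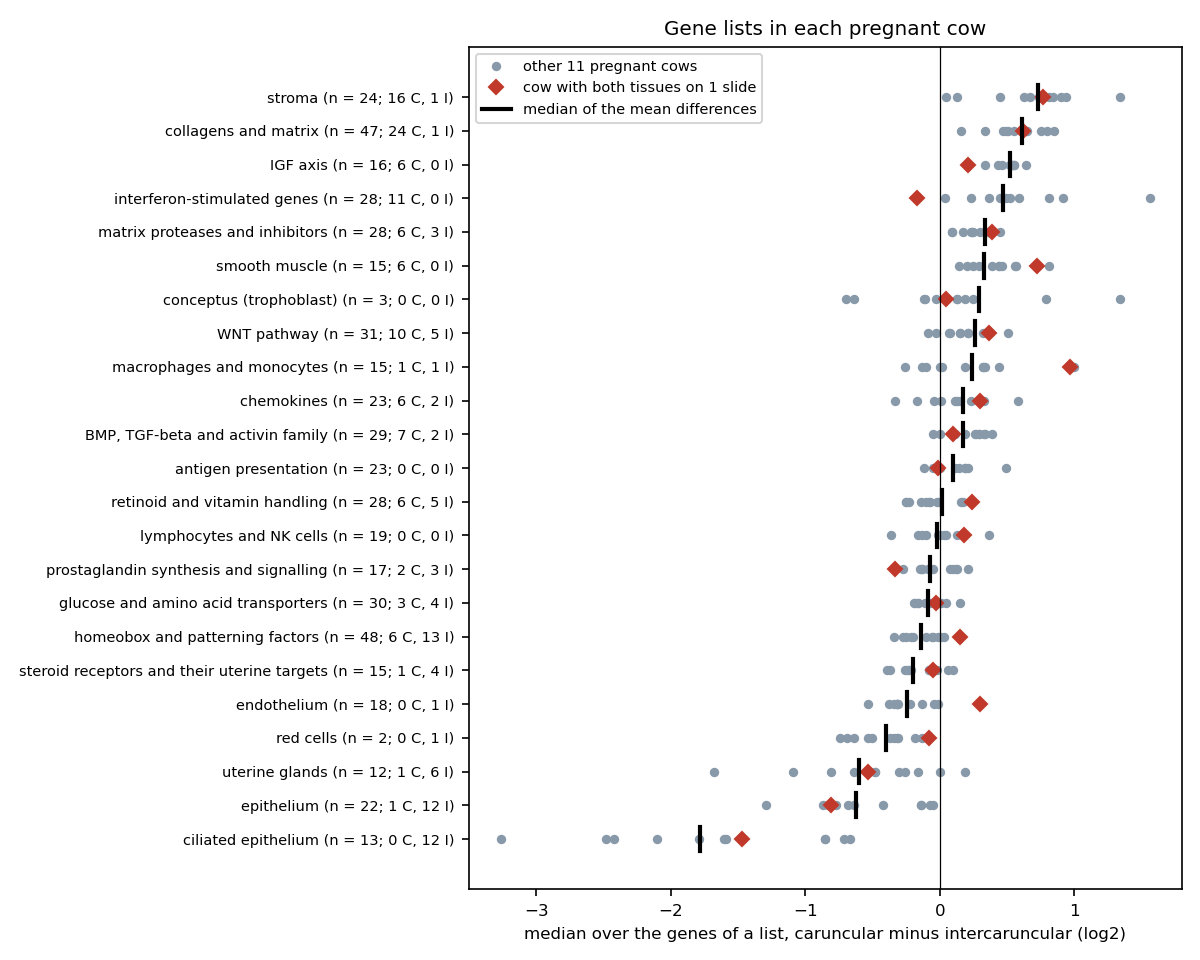
Median log2 difference, caruncular minus intercaruncular, over the genes of each list in each pregnant cow (grey, the 11 cows with tissues in different scans; red, the single-slide cow; black bar, the median of the mean differences); the label gives the genes tested and the number called higher in caruncular (C) and intercaruncular (I) tissue. The ciliated and epithelial lists lie below 0 and the stroma and collagen lists above 0 in all 12 cows, and the red points of the interferon-stimulated genes (-0.17) and of the endothelium (0.30) are among those outside the range of the other 11 cows.

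Matrix genes had the largest number of calls toward caruncular tissue of any list, while the stroma list had a larger share (16 of 24). These lists share members, among them COL1A1, COL1A2, COL3A1, COL5A1, DCN and LUM, so their counts overlap. Of 47 genes for collagens and other matrix proteins, 24 were called higher in caruncular and 1 (LAMA1, -0.90) in intercaruncular tissue, at a median of 0.61 (0.62 in the single-slide cow). The 24 take in the fibrillar collagens COL1A1, COL1A2, COL3A1 (0.91 ± 0.16), COL5A1, COL5A2 and COL11A1 (2.26) and 5 chains of basement membrane collagen IV, from COL4A2 (0.63) over COL4A5 (1.35), COL4A4 (1.42) and COL4A3 (1.72 ± 0.14) to COL4A6. Of the called members, 19 were past 1.5-fold in the same direction in the single-slide cow. Some matrix genes lacked the difference there, as NID1 (1.20 in the fit, -0.29 in the single-slide cow) and COL6A1 (0.61 and -0.04).

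Proteases and their inhibitors were called higher in caruncular tissue for 6 of 28 genes and in intercaruncular tissue for 3 (median 0.34, and 0.39 in the single-slide cow). The 3 are near the 8.26% of all probes called toward intercaruncular tissue. The aggrecanase ADAMTS5 differed by 1.10 ± 0.12, the procollagen protease ADAMTS3 by 2.10 ± 0.20 (well above background in 6 of 12 intercaruncular samples), ADAM19 by 1.03 ± 0.11 and the inhibitor TIMP1 by 0.62 ± 0.07. Of these 4, ADAM19 (0.47), TIMP1 (0.53), ADAMTS5 (0.16) and ADAMTS3 (0.56) were all below 1.5-fold in the single-slide cow. The gelatinase MMP2 did not reach the fold on the brighter probe (0.25 ± 0.07) and was called on the other (0.66 ± 0.09).

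WNT signalling genes were called in both directions, 10 of 31 higher in caruncular and 5 in intercaruncular tissue (median 0.26, and 0.37 in the single-slide cow). The extracellular inhibitors of the pathway divided. DKK1 ran from -0.74 to 2.80 (median 1.66) in caruncular and from -2.68 to 0.49 (median -0.63) in intercaruncular tissue. Every cow was higher in caruncular tissue, by 2.32 ± 0.15 (adjusted p = 1.23e-06), and the single-slide cow differed by the same 2.32. The secreted frizzled-related genes SFRP1 (1.47 ± 0.16, and 1.36 in the single-slide cow), FRZB (1.74 and 3.70), SFRP2 (0.73 and 0.92) and SFRP4 (0.69 and 0.45) were also called toward caruncular tissue, as were the activators RSPO1 (0.98 and 0.99) and RSPO3 (1.23 and 2.40). The inhibitor WIF1 was called toward intercaruncular tissue (-1.13 ± 0.14, and -1.62), together with the R-spondin receptor LGR4 (-1.22 ± 0.12, and -0.80; a second probe 0.23 ± 0.15, not called). The ligands WNT11 (-1.44 and -0.19) and WNT2B (-1.35 and 0.51) were called in the same direction, at values that the single-slide cow did not share, and WNT16 in the other (1.31 and 1.47).

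In the BMP, TGF-beta and activin family 7 of 29 genes were called higher in caruncular and 2 in intercaruncular tissue (median 0.17). Of all probes tested 9.42% and 8.26% were called in these directions, so the 2 are near the share of all probes. FSTL1, a secreted follistatin-like protein, did not overlap between the tissues, at 0.06 to 1.42 in caruncular and -0.80 to 0.00 in intercaruncular samples (1.12 ± 0.11, and 1.28 in the single-slide cow). The BMP antagonist GREM1 differed by 0.85 and by 1.51 in the single-slide cow. The receptor BMPR1A (0.73 ± 0.09) and the ligand BMP2 (0.61 ± 0.12) were called as well, with -0.22 and -0.09 in the single-slide cow. The antagonist CHRDL1 (-0.74 ± 0.10) and the inhibin subunit INHBB (-0.82) were called toward intercaruncular tissue, with -0.08 and -0.93 in the single-slide cow.

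Of 16 genes of the insulin-like growth factor axis, 6 were called higher in caruncular and none in intercaruncular tissue, at a median of 0.52, with 0.21 in the single-slide cow. The growth factors IGF1 (0.90 ± 0.16) and IGF2 (0.85 ± 0.24) differed by 0.62 and 1.44 in the single-slide cow, and the binding protein IGFBP3 (0.95 ± 0.10) by 0.94. IGFBP2 (1.11 ± 0.19), the insulin receptor INSR (0.65 ± 0.10) and its substrate IRS2 (0.72 ± 0.10) were called, while in the single-slide cow they differed by 0.11, -0.11 and -0.18. In the single-slide cyclic cow all 6 called genes went the other way. IGF1 differed there by -0.64, IGF2 by -1.40, IGFBP3 by -0.73, IGFBP2 by -0.25, INSR by -0.71 and IRS2 by -0.79. The list's median in that cow was -0.17, against 0.42 in the fit of the cyclic cows.

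Homeobox and patterning factors were called toward intercaruncular tissue for 13 of 48 genes and toward caruncular tissue for 6 (median -0.14, and 0.15 in the single-slide cow). The HOX genes, whose position in a cluster follows their order of expression along the body axis, divided by paralogue number, a grouping made after the values were seen. Of 16 genes of paralogues 1 to 8, 7 were called higher in intercaruncular and none in caruncular tissue (median -0.49). Of 7 genes of paralogues 9 to 13, 4 were called higher in caruncular and none in intercaruncular tissue (median 0.59). The B cluster held 5 of the 7 intercaruncular calls, of 6 genes tested. HOXB2 did not overlap, at -2.84 to -0.81 in caruncular and -0.67 to 0.28 in intercaruncular samples, and differed by -1.50 ± 0.15 (adjusted p = 4.79e-06). HOXA10, a posterior HOX gene needed for uterine receptivity in mice, ran from -0.06 to 1.91 (median 0.79) in caruncular and from -0.74 to 0.46 (median -0.25) in intercaruncular tissue. These ranges overlapped, and HOXA10 was higher in caruncular tissue in 10 of 12 cows, by 1.08 ± 0.18 (adjusted p = 0.000139). HOXA11 differed by 0.77 ± 0.13 and HOXD10 by 0.79 ± 0.10, and HOXA13 by -0.03 ± 0.14 (adjusted p = 0.87).

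In the single-slide cow the 4 called posterior genes kept their direction, from 0.58 (HOXD10) to 0.97 (HOXA10), and so did the 5 called genes of the B cluster, from -0.51 (HOXB2) to -1.09 (HOXB6). HOXA2 (-0.67 ± 0.15) and HOXD1 (-0.71 ± 0.17) did not, at 0.43 and 0.07. Of the 16 anterior genes 8 were below 0 and 8 above 0 in that cow, and of the 7 posterior genes 6 were above 0. Outside the HOX clusters, DLX6 (-1.56 ± 0.16, and -1.00 in the single-slide cow) and MSX1 (-1.24 ± 0.13, and -1.06), homeobox genes of epithelial-mesenchymal signalling, were called toward intercaruncular tissue.

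**Figure D4:**
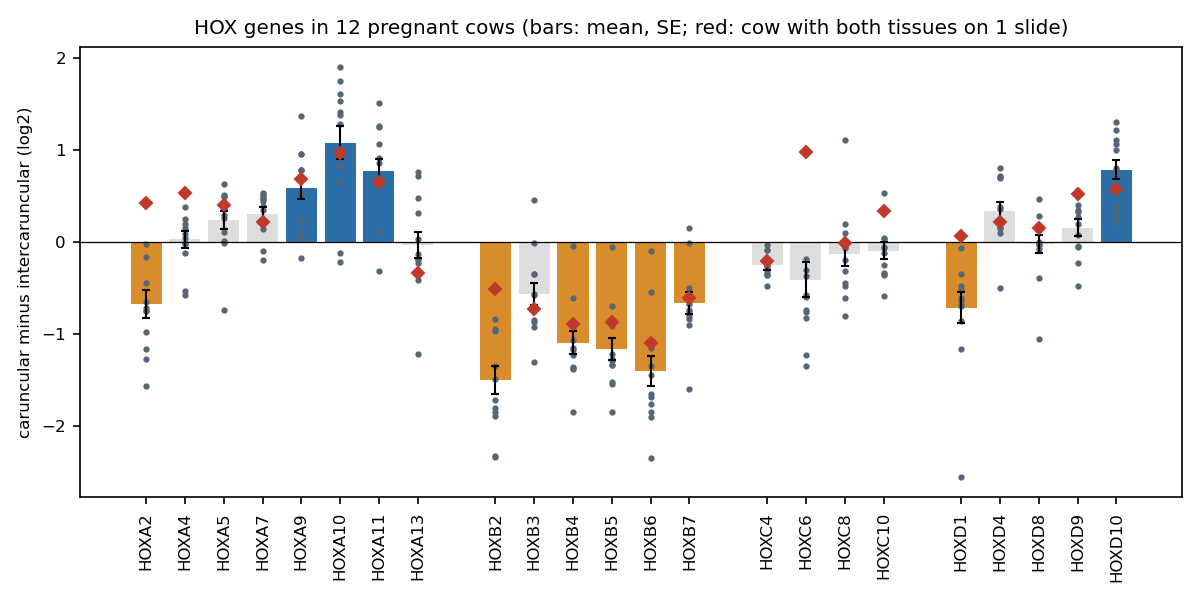
Log2 difference, caruncular minus intercaruncular, of 23 HOX genes tested, ordered by cluster and paralogue number (bars, mean of 12 pregnant cows with SE; blue, called higher in caruncular; orange, called higher in intercaruncular; light grey, not called; points, cows; red, the single-slide cow). The orange bars stand at HOXA2, HOXD1 and 5 genes of the B cluster, and the blue bars at HOXA9, HOXA10, HOXA11 and HOXD10.

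Among steroid receptors and their uterine targets 1 of 15 genes, DKK1, was called higher in caruncular and 4 in intercaruncular tissue. The caruncular count is near the 9.42% of all probes. IHH, the epithelial hedgehog ligand induced by progesterone in mice, differed by -1.38 ± 0.15 and the oestrogen receptor ESR2 by -1.40 ± 0.23, with -0.84 and -1.07 in the single-slide cow. The receptor genes PGR (0.57 ± 0.09, just below the fold, and -0.05 in the single-slide cow), ESR1 (0.21 ± 0.10, adjusted p = 0.0987) and OXTR, the oxytocin receptor of luteolysis (-0.16 ± 0.27, adjusted p = 0.611), were not called. Of 17 prostaglandin genes, 2 were called higher in caruncular tissue, again near the share of all probes, and 3 in intercaruncular tissue. PTGES, a prostaglandin E synthase, differed by 0.81 ± 0.13 (1.46 in the single-slide cow) and the E receptor PTGER4 by 0.62 (1.25). The degrading enzyme HPGD (-1.37 ± 0.17, and -0.76 in the single-slide cow), AKR1C4 (-1.35 ± 0.21) and AKR1B1, a prostaglandin F synthase (-0.78 ± 0.13), were called the other way, and the cyclooxygenase PTGS2 was not called (0.10 ± 0.25). In the single-slide cow PTGS2 differed by -1.18. All 5 called prostaglandin genes were past 1.5-fold in their direction in the single-slide cow.

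Of 23 chemokine genes 6 were called higher in caruncular and 2 in intercaruncular tissue, the latter near the 8.26% of all probes. CXCL10, a chemokine induced by interferons, ran from -1.98 to 3.46 in caruncular and from -2.60 to 1.00 in intercaruncular tissue and was higher in caruncular tissue in 12 of 12 cows (1.46 ± 0.36, and 0.40 in the single-slide cow). The epithelial chemokine CCL28 (-1.87 ± 0.22, and -0.10; well above background in 5 of 12 caruncular samples) and the eosinophil attractant CCL11 (-1.12 ± 0.29, and -1.72) were called toward intercaruncular tissue. In the single-slide cyclic cow CCL28 differed by -1.65 and CCL11 by 2.11, the other way. None of 23 antigen presentation genes was called by limma, although the light chain of class I molecules, B2M, was at 0.50 ± 0.11 (adjusted p = 0.00101) and its peptide transporter TAP1 at -0.03 ± 0.14.

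Among 30 transporters of glucose and amino acids 3 were called higher in caruncular and 4 in intercaruncular tissue (median -0.09), shares near the 9.42% and 8.26% of all probes tested. SLC15A2, a peptide transporter, differed by -1.89 ± 0.25 and the glutamate transporter SLC1A1 by -1.28 ± 0.20, with -1.46 and -1.48 in the single-slide cow, and the glucose transporter SLC2A1 was at -0.16 ± 0.18 (adjusted p = 0.463). Retinoid and vitamin genes divided, 6 of 28 toward caruncular and 5 toward intercaruncular tissue. The retinaldehyde dehydrogenases went apart, ALDH1A2 toward caruncular (1.03, and 1.28 in the single-slide cow) and ALDH1A1 toward intercaruncular tissue (-1.06 ± 0.11, and -0.95). RBP4, the plasma carrier of retinol, did not overlap between the tissues, at -1.52 to -0.54 in caruncular and -0.44 to 0.19 in intercaruncular samples (-0.89 ± 0.09, and -0.65).

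Interferon-stimulated genes were called higher in caruncular tissue for 11 of 28 genes and in intercaruncular tissue for none, at a median of 0.47. All 28 mean differences were above 0, and 19 had an adjusted p under 0.05. Of all 14689 probes tested, 6979 were above 0 and 9028 had an adjusted p under 0.05, so the 19 are near the share of all probes. MX2, an antiviral GTPase, ran from 0.41 to 2.25 (median 1.51) in caruncular and from -1.79 to 1.73 (median -0.48) in intercaruncular tissue. It was higher in caruncular tissue in 11 of 12 cows, by 1.95 ± 0.21 (adjusted p = 5.63e-06). RSAD2, the antiviral enzyme viperin, ran from -0.42 to 2.44 and from -2.26 to 1.57 and differed by 1.91 ± 0.25 (adjusted p = 1.95e-05) in 11 of 12 cows. The single-slide cow was the exception for both genes, with -0.18 for MX2 and -0.50 for RSAD2, and it held the highest intercaruncular level of each.

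The same held across the list. In the single-slide cow the 28 genes ran from -0.68 to 0.17 with a median of -0.17, below the 0.04 to 1.56 of the other 11 cows, and 10 of the 11 called genes were below 0. TRIM25, an activator of RIG-I signalling (well above background in 7 of 12 intercaruncular samples), was at 1.69 ± 0.21 in the fit and -0.34 in the single-slide cow, PARP14 at 0.96 ± 0.14 and -0.30, IFIH1 at 1.11 ± 0.18 and -0.40, and IFIT2 at 1.40 ± 0.31 and -0.14. Classic members such as ISG15 (0.35 ± 0.18, adjusted p = 0.0987) and MX1 (0.41 ± 0.09) were not called. Whether the different values of the single-slide cow lie with its slide and scan or with the animal was not tested, since no second pregnant cow has both tissues on 1 slide.

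**Figure D5:**
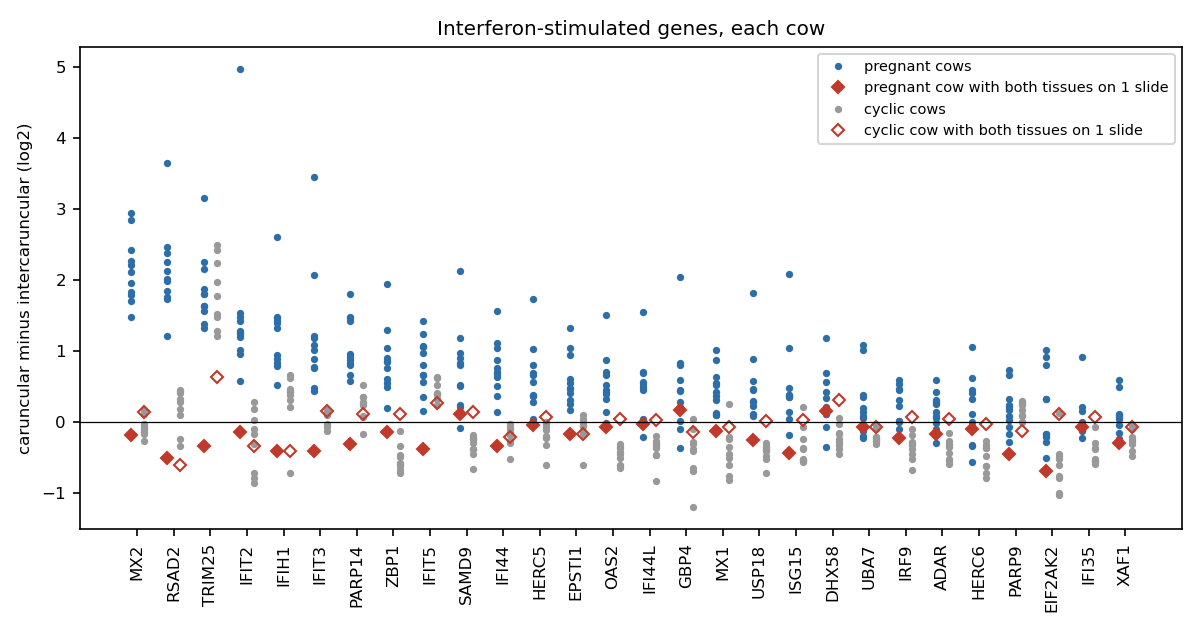
Log2 difference, caruncular minus intercaruncular, of the 28 interferon-stimulated genes in each cow (blue, pregnant; grey, cyclic; filled and open red diamonds, the pregnant and the cyclic single-slide cow). MX2 and RSAD2 lie between 1.22 and 3.64 in the other 11 pregnant cows, the filled diamonds lie between -0.68 and 0.17, and TRIM25 is as high in cyclic as in pregnant cows.

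A large difference across scans with none on 1 slide was not confined to interferon-stimulated genes. Among probes chosen after their values were seen, NOTCH2 (2.10 ± 0.23), FRMD6 (2.06 ± 0.21), CAMSAP2 (1.76 ± 0.20) and 1 of 2 probes of PDGFRA (2.13 ± 0.20) were called in the 12 cows and differed by -0.18, -0.20, -0.22 and 0.08 in the single-slide cow. They differed by -0.15, -0.05, -0.20 and 0.30 in the single-slide cyclic cow, whereas the means of the cyclic cows were 1.65, 2.03, 1.65 and 1.55. For this PDGFRA probe the intercaruncular samples ran from -1.41 to 1.38 (median -1.06) and the single-slide cow held the highest of them. Other probes with the same symbols gave smaller differences, 0.91 ± 0.12 for PDGFRA (0.51 in the single-slide cow), 0.53 ± 0.07 for NOTCH2 (0.32) and 0.46 ± 0.08 for FRMD6 (0.43). For the CAMSAP2 probe and the NOTCH2 probe with the large difference, the array's description gives another symbol. The NOTCH2 and FRMD6 probes with the large differences were well above background in 7 and 6 of 12 intercaruncular samples.

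The tissue difference of pregnant cows was set against that of the 10 cyclic cows, whose tissues lay in the same scans as those of the pregnant cows. They lay largely on other slides. In the first and second scan only cow Non-Pregnant_3972 shared its slides with pregnant cows, so for the other cows of these scans pregnancy and slide cannot be told apart. Repeat arrays of the third scan also entered the average for more cyclic than pregnant caruncular samples. By limma on the within-cow differences it departed from the cyclic one for 150 of 14688 probes (1.02%) at an adjusted p under 0.05, 96 with a higher and 54 with a lower value in pregnant cows. Of the genes behind these probes 17 were on the interferon-stimulated list, counting any probe of a gene. By the 1 probe a gene used for the list, 16 of its 28 genes were called. MX2 differed between the tissues by 1.95 in pregnant and -0.04 in cyclic cows (difference 1.99, adjusted p = 0.000356). ZBP1, a nucleic acid sensor, stood at 0.78 ± 0.14 against -0.44 (1.23, adjusted p = 0.0018), the RNA sensor RIGI at 0.36 ± 0.10 against -0.59 (0.95, adjusted p = 0.00347), OAS2 at 0.50 ± 0.11 against -0.42 (0.92, adjusted p = 0.00347) and RSAD2 at 1.91 against 0.10 (1.81, adjusted p = 0.00515). TRIM25, in contrast, was at 1.69 in pregnant and 1.70 in cyclic cows (adjusted p = 0.989).

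C3AR1, the receptor of complement fragment C3a, ran from 0.02 to 1.59 (median 0.80) in caruncular and from -0.52 to 0.77 (median 0.00) in intercaruncular tissue of pregnant cows. The ranges overlapped, yet all 12 cows were higher in caruncular tissue, by 0.45 to 1.10. The mean was 0.78 ± 0.06, against 0.14 in cyclic cows (difference 0.64, adjusted p = 0.0018). In the single-slide pregnant cow C3AR1 differed by 0.72 and in the single-slide cyclic cow by 0.39. Among epithelial genes the difference was larger in pregnant cows for KRT7 (-1.57 against -0.25, adjusted p = 0.0245 for the difference) and PIGR (-1.60 against -0.46, adjusted p = 0.0245). MSX1 behaved likewise (-1.24 against -0.40, adjusted p = 0.0449). In the pregnant and the cyclic single-slide cow KRT7 stood at -0.98 and 0.92, PIGR at -1.26 and -0.13 and MSX1 at -1.06 and -0.86. Without both cows whose tissues lay on 1 slide, 630 probes were called, including all 150.

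Neither embryo size nor fertility class gave a called probe for the tissue difference. Between cows with a large and a small embryo limma called 0 probes (1270 at an unadjusted p under 0.05), and between sub-fertile and fertile cows 0 probes (2134 at an unadjusted p under 0.05). Without cow Pregnant_3805 the fertility comparison called 3 probes and without cow Pregnant_9921 it called 2. Cows varied in the size of the tissue difference as a whole. Over the 2597 called probes, the median difference in the direction of the call was 0.34 in the single-slide cow, 0.49 in cow Pregnant_3807 and 0.71 in cow Pregnant_3803, all sub-fertile, and reached 1.12 in cow Pregnant_926, which was fertile. The other sub-fertile cows stood at 0.98, 1.01 and 1.10.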

How the data were processed

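Tissue of 22 cows was measured on 2-colour arrays (sample Cy5, pool Cy3). The deposited scanner files hold spot intensities, background-subtracted and dye-normalized by LOWESS in Agilent Feature Extraction (version 9.5.3.1 per the file headers), and, per the file headers, the log10 ratio of Cy5 to Cy3. The authors' deposited matrix holds log2 ratios of the same arrays and was used as an alternative.

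Log10 ratios were taken to log2, averaged over the spots of a probe without outlier spots, and centred on the array median. Of 21475 probes, 14689 were tested, whose sample intensity was well above background and reached 80 units in 22 or more of the 44 samples. The filter of the study's methods was applied to the processed signal. Symbols came from gene numbers (9611 probes of the array), accessions (3504), gene names (31) and array descriptions (3874), matched to a RefSeq gene table, and 4455 probes stayed unnamed. For 1616 probes, among them those of PLPPR1, CFAP77, CFAP251 and RIGI, the array description gave another symbol than the one used. Precision is limited by the number of arrays and by signal over background.

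Tissues were compared by limma 3.58.1 in R 4.3.3 with the cow as a fixed block, and called at 1.5-fold with p, adjusted by Benjamini-Hochberg, under 0.05. Differences from cyclic cows, by embryo size and by fertility class were tested on within-cow differences, at the adjusted p alone. The cow pairs the samples: deviations from the group means correlated between the tissues of a cow at 0.29 to 0.69, and its own other tissue was the best match for 12 of 12 cows. Standard errors are those of the fit, and scripts were tested on simulated data.

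The members and lists were chosen with earlier results of these data known. Named are the 10 genes with the largest difference in each direction (called, 1 direction in 12 of 12 cows), up to 4 called members of each list by adjusted p with its best-known members and defining markers, and up to 5 probes of each further comparison. Other list members that are named, the probes near 0 in both single-slide cows and the HOX grouping were chosen after their values were seen. Alternatives were normexp (offset 50) with loess, no centring, quantile normalization, the sample channel alone, 2 filters, the matrix, single arrays of the repeated sample, other blocks, the methods' t-test, no fold and each cow left out. Added after the data were seen were the values of the single-slide cyclic cow, the repeat arrays and the list medians per cow. Python 3.11.15 and matplotlib 3.10.9 drew the figures. Probe and genome sequences were not used here, and 1 gene of the interferon-stimulated and 1 of the homeobox list are not reported here.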

Additional observations from a re-analysis of the deposited data

Results flagged for a closer look

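The tissue difference of pregnant cows departed from that of cyclic cows by a test of the difference itself for 11 named genes. Over all probes limma called 150 of 14688 (1.02%) in this test. MX2, C3AR1, ZBP1, RIGI and OAS2 were named because they had the smallest adjusted p in it, so their passing was fixed in advance. The log2 difference between the differences was above 0 for MX2 (1.99), RSAD2 (1.81), ZBP1 (1.23), RIGI (0.95), OAS2 (0.92), MX1 (0.78), PARP14 (0.74) and C3AR1 (0.64), and below 0 for KRT7 (-1.32), PIGR (-1.15) and MSX1 (-0.84). Between the tissues of the single-slide pregnant cow the first 7 differed by -0.50 (RSAD2) to -0.06 (OAS2), and C3AR1 by 0.72. For OAS2 the single-slide cyclic cow stood apart from the other cyclic cows at 0.05, by a measure of the gap that sets about 1 in 20 groups apart by chance. Its median over the interferon-stimulated list was 0.03, above the -0.51 to -0.11 of the other 9 cyclic cows, and in that cow slide and animal cannot be told apart.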

How the results depend on the processing

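The 2597 calls moved to between 1973 (stricter filter) and 3398 (no filter) under the other normalizations, filters, single arrays and tests, with 2206 by normexp and 2135 of the calls shared by the sample channel alone. Without the fold 9028 probes passed. With no replicate block 2493 were called, and pairing by cow as a random block gave 2587. Leaving out each cow gave 2510 to 2836 calls. Scan as a block with the cow left 0, and its values are those of the single-slide cow. Against cyclic cows, 630 probes were called without both single-slide cows and 3 with no replicate block. By embryo size, leaving out each cow gave 0 calls throughout, and by fertility class 0 to 3 (3 without cow Pregnant_3805, 2 without cow Pregnant_9921).

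With the scan as a block, list medians became 0.72 for smooth muscle, 0.30 for endothelium, 0.18 for lymphocytes, 0.97 for macrophages, -0.08 for red cells, -0.17 for interferon-stimulated genes, -0.33 for prostaglandin genes, 0.21 for the IGF axis, 0.15 for homeobox factors and 0.24 for retinoid genes. In that fit 27 of the 134 named probes turned their direction, MX2 to -0.18, ZBP1 and RIGI to -0.14, OAS2 to -0.06, CDH1 to -0.65, SERPINA14 to -0.15, ROBO4 to 0.15, VWF to 0.30, CD3E to 0.27, PRF1 to 0.12, HBA to 0.03, TRIM25 to -0.34, RSAD2 to -0.50, PARP14 to -0.30, MX1 to -0.12, ISG15 to -0.43, TAP1 to 0.14, PGR to -0.05, PTGS2 to -1.18, IRS2 to -0.18, INSR to -0.11, BMPR1A to -0.22, BMP2 to -0.09, RDH10 to -0.06, NOTCH2 to -0.18, FRMD6 to -0.20 and CAMSAP2 to -0.22. Another 92 kept their direction and lost the call. The sample channel alone turned RIGI to -0.09, MYH11 to -0.09, TAP1 to 0.09, PTGS2 to -0.10 and HOXA13 to 0.01, and quantile normalization OXTR to 0.15. With the sample channel alone another 20 named probes kept their direction and lost the call, and 107 of the 134 were unchanged. Among all called probes, 17 took the opposite sign in that setting. Leaving out each cow turned MYH11 (0.00 to 0.19), TAP1 (-0.16 to 0.03), OXTR (-0.28 to 0.08), PTGS2 (-0.03 to 0.24) and HOXA13 (-0.10 to 0.08), none of them called. The causes were not tested.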
